A study of Homo sapiens with 22 samples.

Results

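Distal regulatory DNA in A673 cells was divided by 2 histone marks, acetylation of lysine 27 on histone H3 (H3K27ac) and monomethylation of lysine 4 on the same histone (H3K4me1). The peaks of 2 H3K27ac lists and 2 H3K4me1 lists were merged wherever they overlapped by at least 1 bp, and a merged region was kept when it lay over 2.5 kb from every boundary of a protein-coding gene. A region had a mark when both replicates held a peak there and lacked it when neither did. Of 151575 distal regions, 4535 had both marks (2.99%), 1803 had H3K27ac alone (1.19%) and 12466 had H3K4me1 alone (8.22%). Together the 3 classes held 18804 regions, and the other 132771 had one of the marks in 1 replicate only and were not classed.

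H3K4me1 is laid down at enhancers by the methyltransferases KMT2C and KMT2D and often precedes their use. H3K27ac is added by the acetyltransferases EP300 and CREBBP and goes with enhancers and promoters that are in use. Distal DNA with both marks is therefore usually called an active enhancer, and DNA with H3K4me1 and no H3K27ac a primed one. In Ewing sarcoma, a tumour of bone and soft tissue, the fusion protein EWS-FLI1 binds repeats of the letters GGAA and opens enhancers there, and it represses other genes.

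A673 and CHLA10 are established Ewing sarcoma cell lines, grown here in RPMI 1640 (A673) and IMDM (CHLA10). The method was CUT&RUN, in which an antibody tethers a nuclease that releases the DNA around its target. Of 22 libraries, 18 had a peak list and the 4 IgG libraries entered no comparison. The A673 libraries labelled shNS comprised 2 each for H3K27ac (antibody at 1:50), H3K4me1, H3K4me3 and H3K27me3 (each at 1:100), and CHLA10 had the same set. The single HOXD13 library of each line (antibody at 1:20) lacked the shNS label, so HOXD13 peaks and histone marks came from cells with different labels. No source used here says whether replicates came from separate cultures, so spreads may be technical only. The H3K27ac lists held 40470 and 47393 peaks covering 27.2 and 22.0 Mb, and the H3K4me1 lists 106770 and 43083 peaks covering 74.5 and 51.6 Mb. The lists give no read counts, so the depth behind a peak is unknown and a missing peak is a missing call, not a measured absence of the mark. Each list sums over many cells, so both marks at a region need not have lain in the same cell.

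The label of the cells was checked at the ends of marker genes, where H3K4me3 marks promoters in use or held ready. Of 14 Ewing sarcoma transcription factors and markers, 13 had an H3K4me3 peak within 1 kb of a gene boundary in both A673 libraries, among them NKX2-2, CD99, NR0B1, SOX2 and HOXD13. The exception was TCF4. All 27 measured housekeeping genes and all 31 cell cycle genes had one. Of the markers of other cell types, 1 of 20 myogenic, 3 of 16 hepatic, 4 of 22 haematopoietic, 6 of 23 epithelial and 8 of 19 endothelial genes had it in both libraries. So did 23 of 30 neural, 17 of 23 neural crest, 31 of 40 mesenchymal and 9 of 24 chondrogenic and osteogenic genes. Over all protein-coding genes, 65.3% and 65.1% had the mark in replicates 1 and 2, so it was not particular to the Ewing sarcoma list.

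MicroRNA genes make short RNAs that repress messages through a seed at their start, and they were looked up in the regions of each class. Of 1558 annotated microRNA hairpins, 21 overlapped a region with both marks, 3 an H3K27ac-alone region and 8 an H3K4me1-alone region. Per covered Mb that is 1.56, 1.91 and 0.450 hairpins. The value for H3K27ac alone rests on 3 hairpins, MIR3160-1 and MIR3160-2 at 1 site among them. No density over unclassed regions or the whole genome was computed, so none of the values can be called high or low. The mature sequences below, credited to RefSeq (GRCh38.p14), are shown because several share a seed, with bases 2 to 8 in capitals. They come from regions with both marks on chromosomes 7, 1, 9, 19, 6 and 12.
hsa-miR-29a-3p: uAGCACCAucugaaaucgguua
hsa-miR-29b-3p: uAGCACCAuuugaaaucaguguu
hsa-miR-199a-3p: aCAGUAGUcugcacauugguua
hsa-miR-199b-3p: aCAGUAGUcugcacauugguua
hsa-miR-23a-3p: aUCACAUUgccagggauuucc
hsa-miR-27a-3p: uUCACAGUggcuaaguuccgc
hsa-miR-24-3p: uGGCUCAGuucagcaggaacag
hsa-miR-30a-5p: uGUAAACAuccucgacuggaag
hsa-miR-148b-3p: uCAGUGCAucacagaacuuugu

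The miR-29a and miR-29b-1 hairpins, whose products share the seed AGCACCA and target collagen messages, lay on the minus strand in 1 region at chr7:130875086-130880191. Its strongest H3K27ac peaks had −log10 q values of 5.13 and 6.03 in replicates 1 and 2, and its strongest H3K4me1 peaks 48.0 and 38.6, although values of different lists share no common depth. At MIR199A2, inside the gene DNM3, the region chr1:172144182-172150199 also had H3K4me3 peaks with −log10 q values of 127.7 and 188.3. Another source of the same 3p sequence, MIR199B, lay at chr9:128243788-128247380 with no H3K4me3 peak. The miR-23a, miR-27a and miR-24 cluster shared the region chr19:13835724-13837744, with H3K27ac values of 16.4 and 20.7 and H3K4me1 values of 3.58 and 23.4. There the 2 H3K4me1 replicates were far apart. MIR30A (chr6:71403332-71404669) and MIR148B (chr12:54336776-54340375) completed the printed set.

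Fewer hairpins fell in the other classes. The H3K27ac-alone regions held MIR3160-1 and MIR3160-2, which are read from opposite strands of 1 site nearest to AMBRA1, and MIR553. The H3K4me1-alone regions held 8, and the one in the strongest region was MIR6827 beside AMOTL2 (chr3:134367817-134372842). Its 5p product is shown because its seed differs from all those above.
hsa-miR-6827-5p: uGGGAGCCaugagggucugugc

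The central count was how often distal H3K4me1 came with H3K27ac. Among the 17001 regions with H3K4me1 in both replicates and H3K27ac in both or neither, 26.7% had H3K27ac (exact Clopper-Pearson 95% interval 26.0 to 27.3, counting error only). Over all 23896 regions with H3K4me1 in both replicates, 4535 (19.0%) had H3K27ac in both, 6895 (28.9%) in 1 and 12466 (52.2%) in neither. Seen from the other mark, 56.8% of the 7984 regions with H3K27ac in both replicates had H3K4me1 in both and 22.6% had it in neither. The share of 26.7% was 31.2% without H3K27ac replicate 1 and 35.4% without H3K27ac replicate 2. It was 16.6% without H3K4me1 replicate 1 and 6.83% without H3K4me1 replicate 2, so the long replicate 1 list of H3K4me1 gave the lowest share when it stood on its own. The class counts moved as strongly, to between 4871 and 8449 regions with both marks, 2271 and 27969 with H3K27ac alone and 15432 and 76731 with H3K4me1 alone, when each library was left out in turn.

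**Figure D1:**
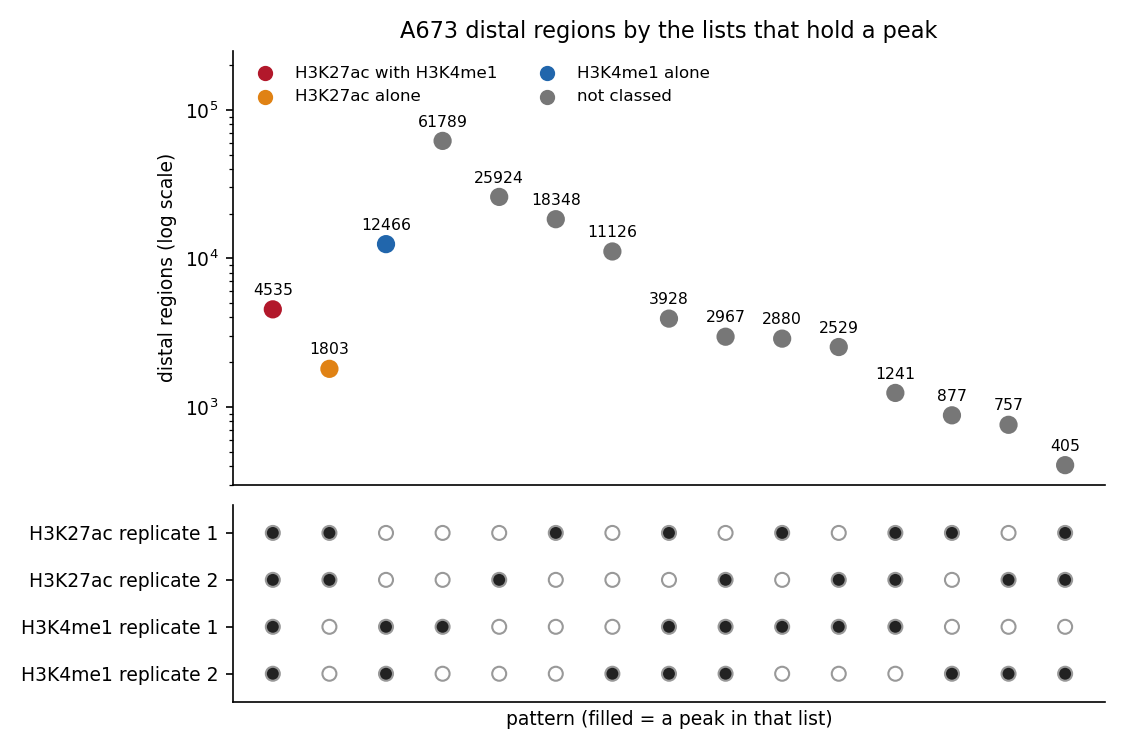
Number of A673 distal regions (log scale) for each combination of the 4 lists, where a filled dot below the axis stands for a peak in that list. The class with both marks holds 4535 regions, H3K27ac alone 1803 and H3K4me1 alone 12466, while the largest unclassed pattern, a peak in H3K4me1 replicate 1 only, holds 61789.

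Most distal peaks were called in 1 library. A peak in H3K4me1 replicate 1 only accounted for 61789 regions, in H3K27ac replicate 2 only for 25924, in H3K27ac replicate 1 only for 18348 and in H3K4me1 replicate 2 only for 11126. Near the distance limit, 74 regions had both marks, 51 had H3K27ac alone and 208 had H3K4me1 alone just outside it (2.5 to 3.0 kb), and 101, 53 and 257 did just inside it (2.0 to 2.5 kb), where they were not used.

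An H3K27ac peak more often shared its merged region with a peak of the other replicate where H3K4me1 was present. Replicate 1 peaks repeated at 53.6% where both H3K4me1 lists had a peak, at 30.5% where 1 did and at 8.95% where neither did, and replicate 2 peaks at 60.5%, 33.4% and 6.50%. H3K4me1 repeated in the same order. Its replicate 1 peaks were found again at 78.5%, 56.0% and 16.8%, and its replicate 2 peaks at 91.8%, 80.8% and 52.8%, with H3K27ac in both, 1 or neither list. These shares come from the 4 lists that define the classes and are a description. Regions with all 4 lists were also longer (median 2379 bp) than those with H3K27ac alone (727 bp) or H3K4me1 alone (1127 bp), and the part of length in these shares was not tested. In the class with both marks the strongest summits of the 2 H3K27ac replicates lay a median 245 bp apart and those of the 2 H3K4me1 replicates 268 bp apart. The 4 pairings of an H3K27ac with an H3K4me1 library gave medians of 280 to 336 bp, little above the offset within a mark.

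Regions with both marks were longer than the others and had higher median folds. Their median length was 2.38 kb, against 0.727 kb for H3K27ac alone and 1.13 kb for H3K4me1 alone, and the longest of each class reached 22.5, 6.93 and 11.3 kb. They covered 13.4, 1.57 and 17.8 Mb. A region joins the peaks of all lists that touch, so this length follows in part from the rule, which asks 4 lists for the first class and 2 for the others. The strongest H3K27ac peak had a median fold enrichment (the authors' ratio over the caller's background) of 7.40 and 7.12 in replicates 1 and 2 of regions with both marks, against 5.82 and 5.83 where H3K27ac stood alone. For H3K4me1 the medians were 10.5 and 9.33 with both marks, against 7.42 and 6.34 for H3K4me1 alone. The middle 50% of the values overlapped in every library. These folds come from the 4 lists that define the classes and are a description. Regions with both marks also more often held several peaks to take the strongest from. For H3K4me1 replicate 1, 15.1% of them held 2 or more, against 6.76% with H3K4me1 alone. The part of this in the folds was not tested.

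**Figure D2:**
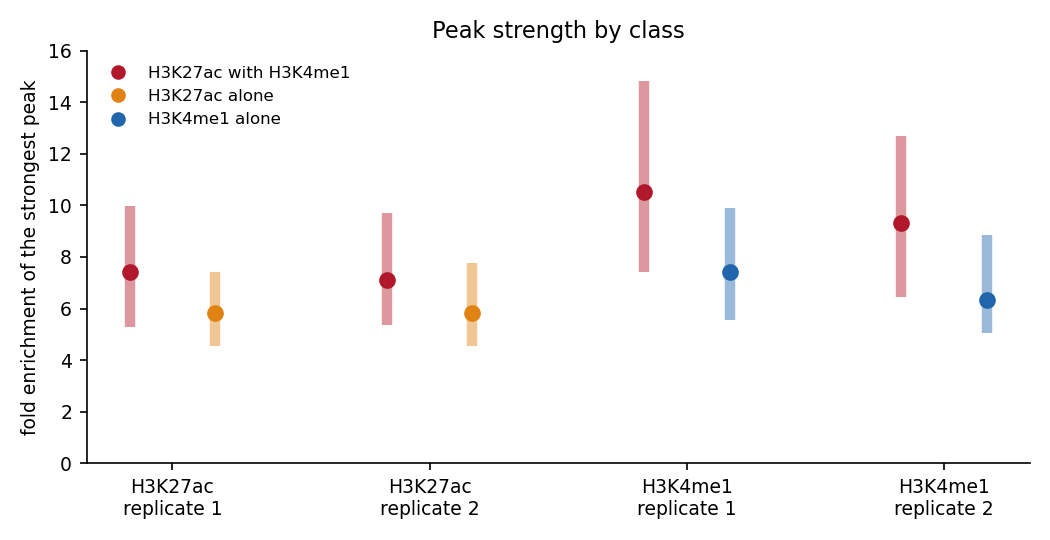
Fold enrichment of the strongest peak per region in each library, with the median as a point and the middle 50% of regions as a bar, for regions with both marks beside those with the mark alone. The median is higher with both marks in each of the 4 libraries (7.40 against 5.82 in H3K27ac replicate 1, 9.33 against 6.34 in H3K4me1 replicate 2), and the bars overlap. The same 4 lists define the classes.

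Ranking by the strength of one mark ordered the presence of the other. In the strongest decile of regions with H3K4me1 in both replicates, 44.1% had H3K27ac in both and 24.0% in neither, against 7.03% and 72.9% in the weakest decile. In the strongest decile of regions with H3K27ac in both replicates, 78.2% had H3K4me1 in both and 6.88% in neither, against 40.98% and 35.5% in the weakest decile. Median length moved with strength, at 3.79 kb in the strongest and 0.757 kb in the weakest decile for H3K4me1, and 3.23 and 0.966 kb for H3K27ac, and its part in the order was not tested.

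**Figure D3:**
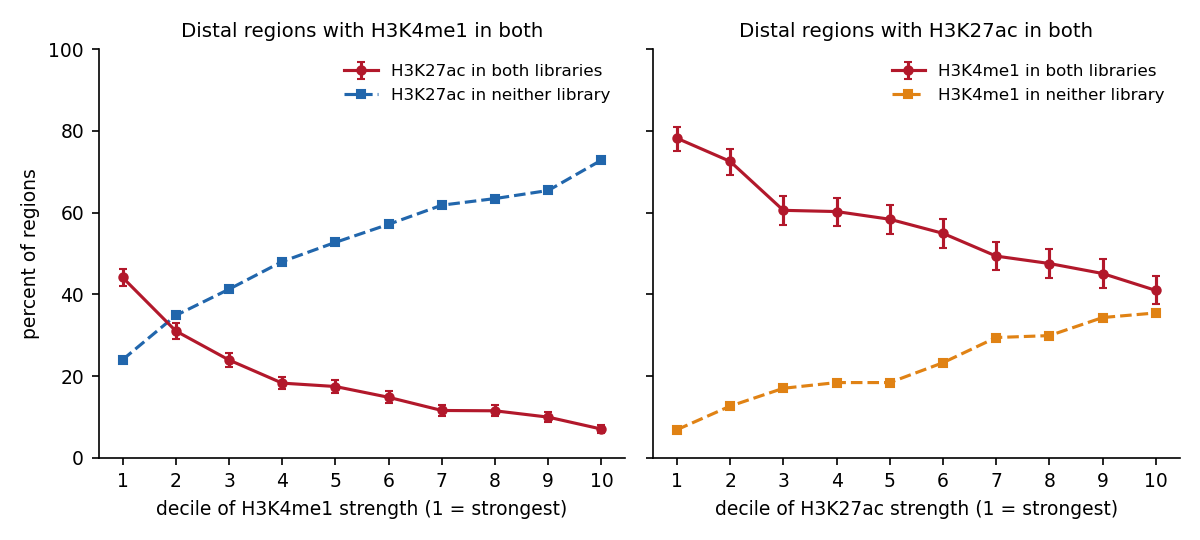
Percent of distal regions with the other mark in both libraries (points with exact 95% intervals) or in neither (squares), by decile of the strength of H3K4me1 (left) or H3K27ac (right), where decile 1 is the strongest. H3K27ac in both libraries falls to 7.03% in the weakest H3K4me1 decile, against 44.1% in the strongest, and H3K4me1 falls to 40.98%, against 78.2%.

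For named regions, here and below, strongest means the best worst rank by −log10 q over the lists that hold the mark, not the highest fold. The strongest member of the class with both marks lay between protein-coding genes (chr14:22544034-22548615). The nearest, 16.3 kb away, was DAD1, which encodes a subunit of the oligosaccharyltransferase. Genes of other types were not used to place regions inside or between genes. Its H3K27ac folds were 22.2 and 22.0 and its H3K4me1 folds 32.8 and 31.0, and it had no peak in any other A673 or CHLA10 list. The next region, inside the RNA polymerase III factor gene BRF1 and nearest to PACS2 (chr14:105275332-105278094), had folds of 21.7 and 22.0 for H3K27ac and 28.5 and 29.1 for H3K4me1, and a peak in all 4 CHLA10 lists of these marks. A 12.7-kb region inside LMNA, the nuclear lamin A/C gene (chr1:156117800-156130517), had 27.5 and 31.7 for H3K27ac and 29.3 and 24.7 for H3K4me1, again with all 4 CHLA10 lists. These 2 regions had both marks in both lines, whereas the one near DAD1 was called in A673 only.

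A 19.0-kb region inside KIRREL1, a gene of an immunoglobulin-family adhesion protein (chr1:158004919-158023928), had H3K27ac folds of 18.2 and 17.9 and H3K4me1 folds of 27.8 and 23.4. The region nearest MRPL14, a mitochondrial ribosome gene (chr6:44039029-44045265), had 18.5 and 20.1 for H3K27ac and 24.7 and 29.8 for H3K4me1. Inside the BMP receptor gene BMPR1A (chr10:86863267-86869198) the values were 16.98 and 16.4, and 28.5 and 20.0. Those 3 had H3K27ac in both CHLA10 libraries, and only the region in KIRREL1 had a CHLA10 H3K4me1 peak, in 1 library.

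H3K27ac without H3K4me1 was strongest by worst rank of −log10 q at chr16:90116595-90118898, 39.3 kb from PRDM7. Its folds were 11.9 and 13.5, below those of some regions that follow, and it had no H3K4me3 peak. Inside ADAP1 (chr7:905375-906656) the folds were 31.7 and 20.7, and A673 H3K27me3 replicate 1 also had a peak. H3K4me3 was high at 2 regions inside genes. In the tropomyosin gene TPM4 (chr19:16077128-16078970) it had folds of 36.2 and 28.6 beside H3K27ac folds of 7.66 and 7.56. In PRR5L, a gene of mTOR complex signalling, at an internal annotated start (chr11:36374403-36375868), it had 62.8 and 63.9 beside 8.83 and 9.24. Another region, inside PSKH1 and nearest to CTRL (chr16:67921576-67923789), had H3K27ac folds of 18.5 and 16.2 and no other peak. So 2 of these 5 regions had H3K4me3, a mark of starts of transcription, in both libraries.

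H3K4me1 alone was strongest, by the same ranking, inside SMAD6, an inhibitor of BMP signalling (chr15:66760591-66767808), with folds of 24.1 and 28.5. Inside AMOTL2, a gene of the angiomotin family (chr3:134367817-134372842), the folds were 23.5 and 23.4 beside H3K4me3 folds of 36.1 and 44.5. Inside RAI1 and nearest to the lipid synthesis regulator gene SREBF1 (chr17:17783437-17793061), they were 23.5 and 20.3 beside H3K4me3 folds of 75.6 and 49.9 and a HOXD13 fold of 5.35. Those last 2 regions lacked an H3K27ac call in A673 despite their H3K4me3.

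Inside the death-associated kinase gene DAPK1 (chr9:87528751-87533966) the H3K4me1 folds were 25.4 and 20.3, and inside the zinc finger gene RREB1 (chr6:7168302-7171250) 22.3 and 22.2, and neither region had a peak in any other list. The region in SHTN1 and ENO4 (chr10:116886482-116893626) had 22.6 and 20.9, a HOXD13 fold of 6.65 and H3K27ac in both CHLA10 libraries. It is thus among the regions with H3K4me1 alone in A673 and H3K27ac in CHLA10.

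The next comparison asked whether marks that the classes did not use set them apart. For the A673 and CHLA10 lists used here and below, no share over all distal regions is given. The values thus compare the 3 classes with each other and not with distal regions in general. H3K4me3, found mainly at promoters, lay in 13.6% and 14.1% of regions with both marks in replicates 1 and 2 (617 and 640 regions), in 8.04% and 7.65% of H3K27ac-alone regions and in 3.05% and 3.22% of H3K4me1-alone regions. The groups did not overlap, and the means were 13.9% ± 0.359, 7.85% ± 0.275 and 3.13% ± 0.119 (SD, n = 2 libraries). The difference between both marks and H3K4me1 alone was 10.7 ± 0.240 percentage points. Where an H3K4me3 peak was present, its median fold was 6.25 and 5.98 with both marks, 15.6 and 14.5 with H3K27ac alone and 17.1 and 11.9 with H3K4me1 alone, so the frequent H3K4me3 of the first class was also the weakest. A window of 1 kb was chosen after seeing the data because the classes differ in length. It was centred on the strongest H3K4me1 replicate 1 summit, or on the strongest H3K27ac replicate 1 summit for H3K27ac alone. The window of H3K27ac alone thus sits on another mark than that of the other classes, here and below. The means in the window were 8.70%, 7.96% and 2.53%. Among regions of 1.5 to 2.5 kb, chosen for the same reason, they were 9.48%, 16.4% and 3.28%, and there H3K27ac alone was highest. The difference of 10.7 points was 6.92 without H3K27ac replicate 1, 6.30 without H3K27ac replicate 2, and 5.26 where 1 replicate sufficed for presence.

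H3K27me3, the mark of Polycomb repression, ran the other way. It lay in 1.04% and 1.10% of regions with both marks, in 2.16% and 3.11% of those with H3K27ac alone and in 3.87% and 4.98% of those with H3K4me1 alone, a difference between both marks and H3K4me1 alone of −3.36 ± 0.736 percentage points (SD, n = 2). Both libraries held an H3K27me3 peak at 37 regions with both marks (0.816%), 34 with H3K27ac alone (1.89%) and 418 with H3K4me1 alone (3.35%). The strongest of the 418 lay nearest to the dopamine receptor gene DRD1 (chr5:175347563-175349265), S100A10 (chr1:151967569-151973326), GORAB, the homeobox gene ALX4 (chr11:44332383-44335852), FIGN and PDLIM3. The strongest of the 37 lay nearest to the transcription factor gene MEF2D (chr1:156437380-156439826) and to LDLRAD3, SKAP2, NPVF, APIP and LMO2. With 2 libraries a mark, an exact test over the paired libraries cannot go below p = 0.5, so none was run for these differences.

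HOXD13, a homeobox transcription factor, was called at 707 regions with both marks (15.6%, interval 14.5 to 16.7), at 76 with H3K27ac alone (4.22%, 3.34 to 5.25) and at 696 with H3K4me1 alone (5.58%, 5.19 to 6.001). The intervals cover counting error only, since there was 1 library. No HOXD13 share over all distal regions is given, so none of the 3 can be called high or low. In the 1-kb window the shares were 10.3%, 6.05% and 5.09%, and among regions of 1.5 to 2.5 kb 11.7%, 14.4% and 6.78%. The difference of 10.0 points between both marks and H3K4me1 alone thus came to 5.26 in the window and 4.96 at matched length. It was 6.16 without H3K27ac replicate 1, 6.17 without H3K27ac replicate 2, and 6.48 where 1 replicate sufficed. The median HOXD13 fold was 9.02 with both marks, 7.61 with H3K27ac alone and 10.1 with H3K4me1 alone, so the class with the highest share did not have the highest fold.

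Among regions with both marks and a HOXD13 peak, the strongest by the 4 class lists lay nearest to PAMR1 (chr11:35545498-35551763, HOXD13 fold 12.4), inside the TGF-beta receptor gene TGFBR2 (chr3:30657105-30668641, 13.8), inside TOX2 (chr20:43920204-43928878, 22.1), inside LIMA1 (chr12:50185196-50189401, 17.8), inside PDGFRL (8.86) and inside NOS1AP (chr1:162268255-162273110, 24.9). With H3K4me1 alone they lay nearest to SREBF1, SHTN1, BBOX1 and CLDN5 and inside TSPAN18 and the collagen receptor gene DDR2 (chr1:162669467-162674617, 13.5). With H3K27ac alone they lay nearest to FUCA1, KIFC3 (chr16:57805972-57808204, 14.8), STXBP4, SLAIN1, WDFY2 and the histone gene H2AC6.

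**Figure D4:**
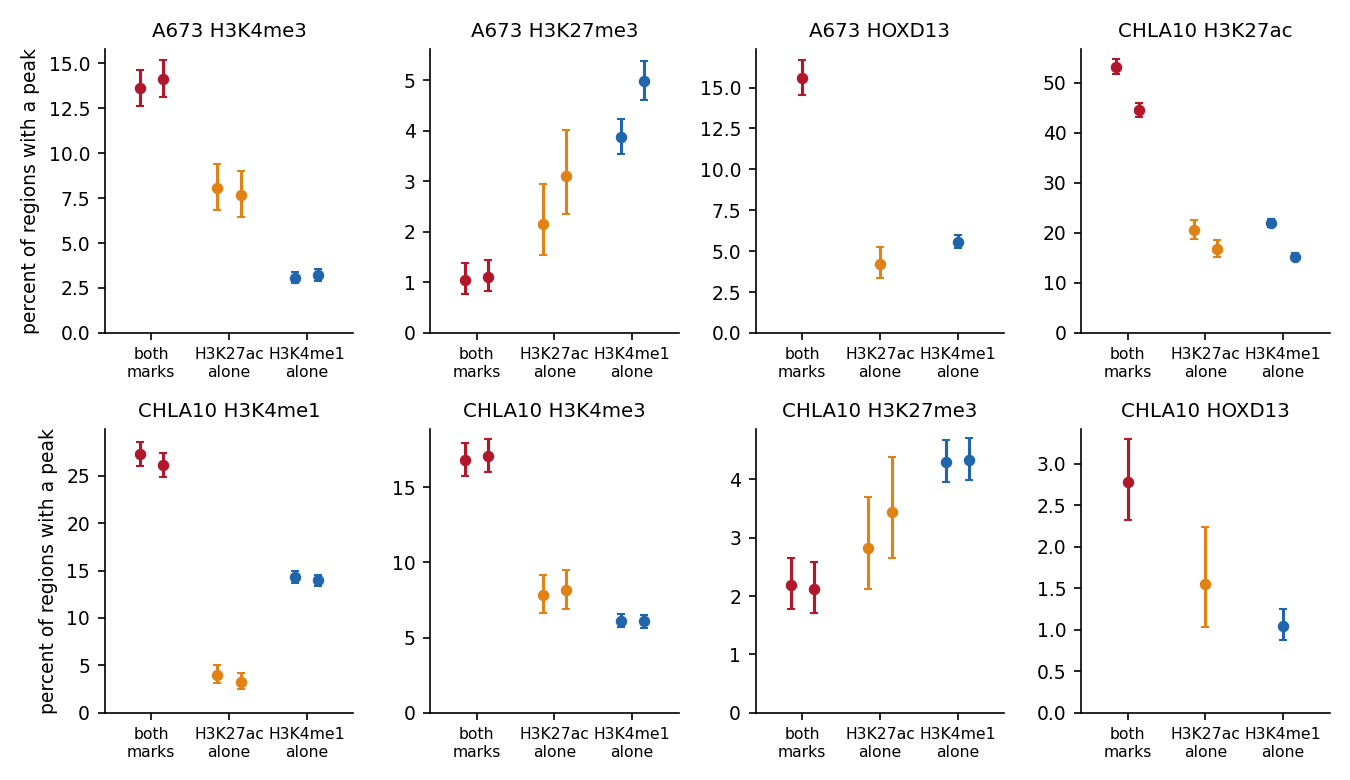
Percent of regions with a peak, by class, for each list that did not define the classes (1 point per library, bars are exact 95% intervals; A673 lists of H3K4me3, H3K27me3 and HOXD13 come first, then those of CHLA10). Regions with both marks are highest for H3K4me3 (13.6% and 14.1%), HOXD13 (15.6%) and CHLA10 H3K27ac (53.3% and 44.6%) and lowest for A673 H3K27me3 (1.04% and 1.10%).

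The same places were then looked up in CHLA10, whose lists had no part in the classes. H3K27ac of CHLA10 lay in 53.3% and 44.6% of A673 regions with both marks, in 20.6% and 16.8% of those with H3K27ac alone and in 21.9% and 15.2% of those with H3K4me1 alone. The means were 48.9% ± 6.11, 18.7% ± 2.67 and 18.6% ± 4.75 (SD, n = 2 libraries). Regions with both marks stood 30.3 ± 1.36 percentage points above H3K4me1 alone. Over whole regions the classes with a single mark differed by less than the spread between libraries, but among regions of 1.5 to 2.5 kb they stood apart. There CHLA10 H3K27ac lay in 50.5% and 41.1% of regions with both marks, 37.0% and 32.2% of the 146 with H3K27ac alone and 25.6% and 18.3% of those with H3K4me1 alone. The difference between both marks and H3K4me1 alone was 24.4 points in the 1-kb window, 19.4 without A673 H3K27ac replicate 1 and 20.0 without A673 H3K27ac replicate 2.

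CHLA10 H3K4me1 lay in 27.3% and 26.1% of regions with both marks, 3.99% and 3.27% of those with H3K27ac alone and 14.3% and 14.0% of those with H3K4me1 alone. CHLA10 H3K4me3 followed at 16.8% and 17.1%, 7.82% and 8.15%, and 6.10% and 6.07%. CHLA10 H3K27me3 lay in 2.18% and 2.12%, 2.83% and 3.44%, and 4.30% and 4.34%. CHLA10 HOXD13 peaks lay in 2.78%, 1.55% and 1.05%. For H3K4me1 and H3K4me3 the order of the classes over whole regions was the same in both replicates. The first 2 classes changed places for HOXD13 in the 1-kb window (1.61%, 2.66% and 0.987%) and for H3K4me3 among regions of 1.5 to 2.5 kb (means 14.5%, 16.8% and 7.14%). At that length they also did for HOXD13 (2.01%, 2.05% and 0.838%) and H3K27me3 (means 2.40%, 2.05% and 4.03%). For HOXD13 and H3K27me3 the H3K27ac-alone share there rests on 3 of 146 regions per library.

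Of the 4535 regions with both marks, CHLA10 H3K27ac was found by both libraries at 1808 (39.9%) and by neither at 1905 (42.0%). For H3K27ac alone the counts were 255 (14.1%) and 1384 (76.8%), and for H3K4me1 alone 1527 (12.2%) and 9358 (75.1%). By the full class rule applied to CHLA10, 425 of the regions with both marks had both there (9.37%), 746 had H3K27ac alone (16.4%), 70 had H3K4me1 alone (1.54%) and 1516 had no peak in any of the 4 lists (33.4%). Of the H3K4me1-alone regions, 257 had both marks in CHLA10 (2.06%), 698 had H3K27ac alone (5.60%), 226 had H3K4me1 alone (1.81%) and 8005 had none (64.2%). Of the H3K27ac-alone regions, 210 kept that class (11.6%), 9 had both marks and 1 had H3K4me1 alone.

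CHLA10 itself gave 2149 distal regions with both marks (3.59% of 59829), 7029 with H3K27ac alone (11.7%) and 1742 with H3K4me1 alone (2.91%). The order of the single-mark classes was thus opposite to that in A673. The A673 H3K4me1 lists held 106770 and 43083 peaks and those of CHLA10 23432 and 20956, so this contrast carries the difference in list length between lines.

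The strongest A673 regions with both marks and no H3K27ac in CHLA10 lay nearest to DAD1, PRR5L (chr11:36355643-36369206), the phagocytosis checkpoint gene SIRPA (chr20:1947006-1957126), PAMR1, the elongation factor gene ELL and SMAP2. Those with H3K27ac in both CHLA10 libraries lay nearest to PACS2, LMNA, KIRREL1, MRPL14, BMPR1A and NFIX (chr19:13051296-13063931). The H3K4me1-alone regions with H3K27ac in both CHLA10 libraries were led by SHTN1, BBOX1 (chr11:27200100-27204664), MCFD2, AMOTL2 (a second region, chr3:134325361-134329096), ITSN1 and UQCRC2.

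Position told the classes apart weakly. Inside a protein-coding gene lay 60.2% of regions with both marks (58.8 to 61.7), 54.9% with H3K27ac alone (52.5 to 57.2) and 57.0% with H3K4me1 alone (56.1 to 57.9), against 55.3% of unclassed regions. The median distance to the nearest gene boundary was 33.7, 24.2 and 42.1 kb. Within 100 kb of a boundary lay 79.9%, 83.4% and 73.5%. The share with both marks among regions with H3K4me1 differed between chromosomes, at 52.9% on chromosome 19 (47.2 to 58.6), 33.6% on 17, 33.3% on 22 and 33.2% on 16, against 19.2% on X (14.7 to 24.5), 19.8% on 13, 21.2% on 6 and 21.2% on 18.

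Some regions stood close together. Joined across gaps of up to 12.5 kb, 172 regions with both marks (3.79%) formed 52 stretches of 3 or more, 17 with H3K27ac alone (0.943%) formed 4, and 580 with H3K4me1 alone (4.65%) formed 186. The stretch with most regions of both marks held 5 over 56.7 kb inside RBMS1, an RNA-binding protein gene (chr2:160369368-160426093). Next came 4 over 57.2 kb in the corepressor gene RERE (chr1:8651078-8708322), 4 over 43.4 kb in NOS1AP and 4 over 42.8 kb in RAI1. For H3K4me1 alone the stretches with most regions held 5 over 54.3 kb in DAPK1, 5 over 43.7 kb in NCKAP5 and 5 over 34.1 kb nearest to SERPINE2, a serine protease inhibitor gene.

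Each region was assigned to the nearest protein-coding gene boundary within 100 kb. Of 19974 genes, 2566 (12.8%) had a region with both marks, 1340 (6.71%) one with H3K27ac alone and 5288 (26.5%) one with H3K4me1 alone. ETV6, an ETS-family repressor gene, led the first class with 9 regions, beside 1 with H3K27ac alone and 4 with H3K4me1 alone. SPRY4, an inhibitor of receptor tyrosine kinase signalling, had 7, 0 and 1, BCAS1 7, 1 and 2, the focal adhesion kinase gene PTK2 7, 0 and 5, the cytoskeletal linker gene MACF1 6, 0 and 1, and NOS1AP 6, 0 and 3. GLI3, a transcription factor of Hedgehog signalling, had 2 with both marks, 0 with H3K27ac alone and 11 with H3K4me1 alone, which put it first in the last class. ARHGAP10 had 3, 0 and 9, the ephrin gene EFNA5 2, 0 and 9, DAPK1 3, 0 and 8, the Polycomb cofactor gene JARID2 2, 1 and 8, and LINGO1 3, 0 and 8.

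The genes with most H3K27ac-alone regions were CCDC200 with 8, RHOU with 6 and the chromatin reader gene ZMYND8 with 4, then STARD13, BCL2L13 and NSMCE2 with 3 each. The 8 regions nearest CCDC200 spanned chr17:43233972-43301151, which holds 13 annotated genes of small nuclear RNAs, and 3 of the 8 overlapped one. The 6 nearest RHOU spanned chr1:228608897-228640628, which holds 14 annotated 5S ribosomal RNA genes, and none of the 6 overlapped one. Their fold enrichments ran from 2.61 to 9.26 and 3.69 to 10.8 in the 2 replicates at CCDC200, and from 3.63 to 6.10 and 3.53 to 8.92 at RHOU. Both places consist of near-identical repeats, between which reads are hard to place, so the counts of regions there are uncertain.

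Gene lists of the tumour's biology and of other cell types were described by the number of members with a region nearest (12.8% of all genes with both marks, 26.5% with H3K4me1 alone). Members differ in the stretch of genome closest to them, with a median of 57.1 kb over all genes, so regions per Mb of that stretch are given too, a measure chosen after seeing the data (2.02 per Mb with both marks and 5.12 with H3K4me1 alone over all genes). In every list the median member had 0 regions with both marks, as had the median gene. For H3K4me1 alone the median was 1 in the mesenchymal, TGF-beta and BMP, neural crest, and chondrogenic and osteogenic lists, 0.5 in the Ewing sarcoma list and 0 in the others and over all genes.

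Genes activated by EWS-FLI1 had a region with both marks nearest in 13 of 35 members (3.73 per Mb) and one with H3K4me1 alone in 16 (5.69 per Mb). IL1RAP, a cell-surface coreceptor for interleukin 1, had 3 with both marks and 4 with H3K4me1 alone, the strongest with both inside the gene (chr3:190594280-190599020, H3K27ac folds 4.21 and 4.66, H3K4me1 folds 6.98 and 6.65). The protein kinase gene PRKCB had 2, the stronger inside the gene with H3K27ac folds of 20.3 and 15.9 and a HOXD13 fold of 15.5 (chr16:23898272-23911921). The neuropeptide receptor gene NPY5R had 2 (chr4:163392022-163393715 the stronger, 9.49 and 9.86) and the caveolin gene CAV1 had 2. With H3K4me1 alone were 4 at TNFRSF21 and 2 each at MYC and NKX2-2.

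Genes repressed by EWS-FLI1 had a region with both marks in 11 of 30 members (7.03 per Mb) and one with H3K4me1 alone in 13 (8.12 per Mb). ANXA2, an annexin gene, had 4 with both marks and 0 with H3K4me1 alone, the strongest inside the gene with H3K27ac folds of 23.8 and 14.2 and H3K4me1 folds of 24.9 and 20.3 (chr15:60368167-60377771). TGFBI, a matrix protein gene, had 4 and 2 (chr5:136018677-136021718 the strongest, 10.6 and 11.7). The tenascin gene TNC had 3 and 6, the urokinase gene PLAU 3 and 0, and FOXO3, a forkhead factor gene, 1 and 5. The share of members with a region of both marks was 36.7% for repressed and 37.1% for activated genes. A region with H3K27ac alone was nearest to 3 of 30 repressed genes (10.0%, 1.08 per Mb) and 10 of 35 activated genes (28.6%, 2.55 per Mb). Over all genes the values for H3K27ac alone were 6.71% and 0.840 per Mb. The activated share was the highest of the 17 lists, but TGF-beta and BMP (23.7%) and endothelial genes (21.1%) came near it. Per Mb, HOX (3.55) and housekeeping genes (3.41) lay above the activated list. These counts are small, and the contrast between the 2 lists was not tested.

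Of the 14 Ewing sarcoma transcription factors and markers, 2 had a region with both marks (NKX2-2 and MEIS1, 0.961 per Mb) and 7 one with H3K4me1 alone (9.13 per Mb). LMO4 had 5 with H3K4me1 alone, MEIS1 4 and TCF4 3. The MEIS1 region with both marks (chr2:66534436-66540865) had H3K27ac folds of 5.18 and 8.42 beside H3K4me1 folds of 22.9 and 14.6, and a HOXD13 fold of 14.4. The one nearest NKX2-2, a homeobox gene activated by the fusion, lay 31.3 kb away (chr20:21553976-21556982, 13.2 and 5.71). None of the 39 HOX genes was nearest to a region with both marks and 4 were nearest to one with H3K4me1 alone (HOXB2, HOXC4, HOXC6 and HOXC13), but their median stretch is 12.1 kb. The HOXC6 region (chr12:54019937-54028008) had H3K4me1 folds of 18.6 and 17.1 and H3K4me3 folds of 35.9 and 35.2.

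Mesenchymal genes, of matrix and adhesion, had a region with both marks in 15 of 40 members and one with H3K4me1 alone in 24 (3.84 and 8.96 per Mb). The integrin gene ITGB1 had 2 with both marks and 1 with H3K4me1 alone, and below the counts follow in that order. The collagen gene COL6A3 had 2 and 1, and COL1A2, COL5A1 and the cadherin gene CDH11 had 1 and 4 each. TGF-beta and BMP pathway genes had 11 and 24 of 38 (3.42 and 7.69 per Mb). Among ligands, TGFB2 had 2 and 5 and BMP5 0 and 3. Among receptors, BMPR1A had 2 and 2 and TGFBR2 2 and 0, with H3K27ac folds of 23.3 and 16.2 in the region inside TGFBR2. Among transducers, SMAD3 had 5 and 5, its strongest region with both marks inside the gene (chr15:67145814-67151393, 18.4 and 11.3, HOXD13 fold 9.73), and the inhibitor SMAD6 had 2 and 4.

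WNT pathway genes had a region with both marks in 12 of 44 members and one with H3K4me1 alone in 21 (2.54 and 8.29 per Mb). The R-spondin receptor LGR4 had 3 and 3, with H3K27ac folds of 14.8 and 18.1 at the strongest (chr11:27455258-27457826), and its relative LGR5 had 1 and 4. The coreceptor LRP5 had 2 and 2 and LRP6 1 and 5. The nuclear effector TCF7L2 had 0 and 5 and TCF7L1 1 and 3, and the ligand gene WNT2B 1 and 0.

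Neural crest genes had a region with both marks in 7 of 23 members and one with H3K4me1 alone in 17 (2.33 and 7.75 per Mb). PAX3, a paired-box gene of the early crest, had 3 and 2, the strongest inside the gene (chr2:222204090-222209962, H3K27ac folds 7.06 and 9.71). TFAP2A and MITF, of crest and pigment cells, had 0 and 4 each, and EDNRB and FOXD3 0 and 3 each. Neural genes had 3 and 10 of 30 (0.691 and 2.76 per Mb), and 1 and 6 when the nearest gene had to lie within 50 kb. By members, 10.0% and 33.3% lay below and above the 12.8% and 26.5% of all genes, while per Mb both lay below the 2.02 and 5.12 of all genes. The PAX6 region with H3K4me1 alone (chr11:31808007-31810126) had H3K27me3 in both A673 libraries beside H3K4me3 folds of 89.0 and 72.9. Chondrogenic and osteogenic genes had 2 and 14 of 24 (0.881 and 6.46 per Mb), or 1 and 10 within 50 kb, with 0 and 3 at the bone regulator RUNX2.

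Cell cycle genes had 2 and 7 of 31 (1.07 and 5.33 per Mb), the 2 being MCM5 and CCND1. Housekeeping genes had 2 and 3 of 27 (2.56 and 4.26 per Mb), the 2 being RAB7A and SDHA. No haematopoietic (of 22), myogenic (of 20) or hepatic gene (of 16) was nearest to a region with both marks, and 2, 4 and 3 were nearest to one with H3K4me1 alone, MEF2C with 4 regions among them. Endothelial genes had 2 and 9 of 19 (0.893 and 6.70 per Mb), the 2 being FLT1 and FLI1, the fusion's own partner gene, whose region lay 4.83 kb from it (chr11:128678044-128680299, H3K27ac folds 7.40 and 5.18).

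Epithelial genes had a region with both marks in 8 of 23 members and one with H3K4me1 alone in 7 (6.40 and 4.93 per Mb), the only list here with more members in the first class. TP63, a regulator of stratified epithelium, had 5 and 0, the strongest between protein-coding genes (chr3:189914048-189915864) with H3K27ac folds of 11.6 and 9.71 and no H3K27ac peak in CHLA10. EHF, an ETS-family factor gene of epithelia, had 2 and 2. The keratin gene KRT18 had 1 and 1, the region with both marks inside its partner KRT8 (chr12:52924341-52927641, H3K27ac folds 12.7 and 10.4), and the splicing regulator gene ESRP2 had 1 and 0. At gene ends 6 of the 23 had H3K4me3 in both libraries and 14 in neither, against 27 of 27 housekeeping genes.

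**Figure D5:**
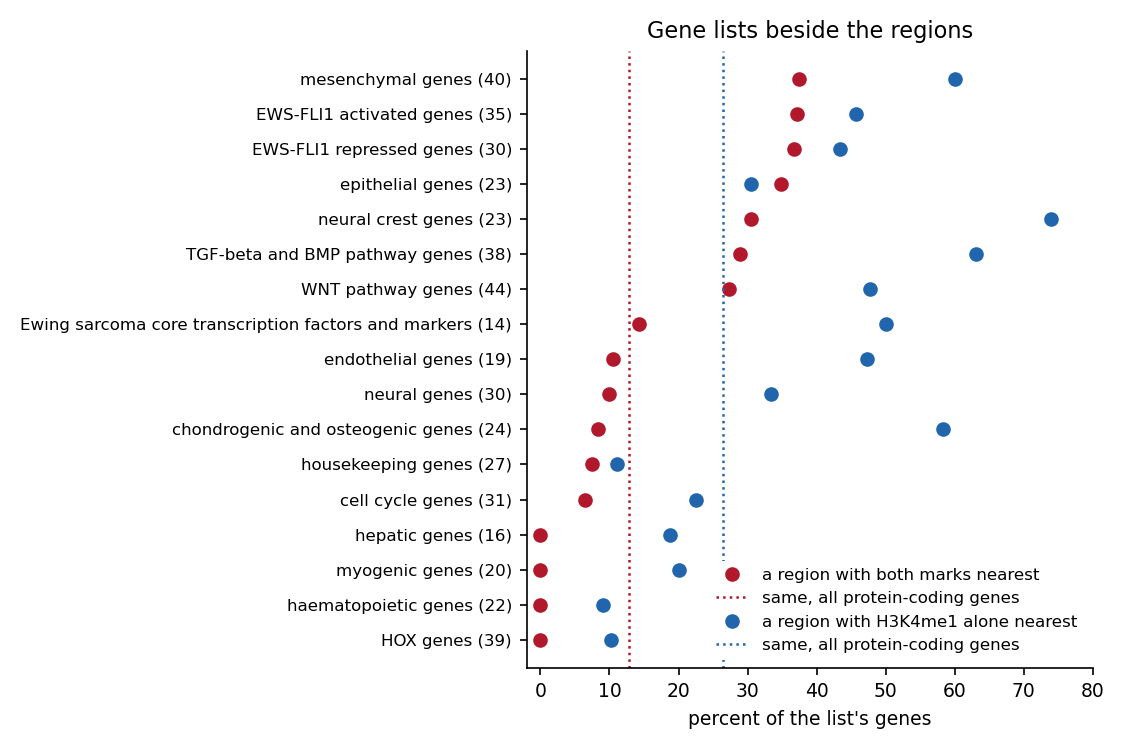
Percent of each list's measured genes (number in brackets) with a region of both marks or of H3K4me1 alone as nearest, within 100 kb. Dotted lines give the same for all protein-coding genes, 12.8% with both marks and 26.5% with H3K4me1 alone. Activated (37.1%), mesenchymal (37.5%), repressed (36.7%), epithelial (34.8%), neural crest (30.4%), TGF-beta and BMP (28.9%) and WNT (27.3%) genes lie right of the first line. Ewing sarcoma marker genes (14.3%, 2 of 14) lie close to it, and per Mb below all genes (0.961 against 2.02). The percents do not allow for the stretch of genome closest to each gene.

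A start of transcription inside a distal region was looked for next. A region here lies away from the outer boundaries of protein-coding genes but may hold an internal start or the start of a non-coding gene. A non-coding start lay in 2.67% of regions with both marks, 1.44% with H3K27ac alone and 1.52% with H3K4me1 alone (0.559% of unclassed regions), and an internal protein-coding start in 1.76%, 1.39% and 0.818% (0.355%). H3K4me3 replicates 1 and 2 had a peak at 48.8% and 51.3% of regions with both marks and a protein-coding start, at 84.0% and 84.0% with H3K27ac alone and at 22.5% and 25.5% with H3K4me1 alone. Without such a start, H3K4me3 replicate 1 had a peak in 13.0%, 6.97% and 2.89% (1.76% of unclassed regions). Most regions with H3K4me3 thus held no annotated protein-coding start.

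One promoter window per class is shown, from 250 bases before to 50 after the annotated start (RefSeq, GRCh38.p14), because H3K4me3 was called in all 3 regions while the enhancer marks differed. Capitals mark the letters GGAAGGAA, a pair of the GGAA units that EWS-FLI1 binds, or their complement TTCCTTCC, searched on both strands. The BFSP1 window (chr20:17558784-17559083, minus strand) lies in a region with both marks, the LINC01359 window (chr1:65002427-65002726, minus strand) in one with H3K27ac alone, and the SOX6 window (chr11:16356497-16356796, minus strand) in one with H3K4me1 alone.
BFSP1: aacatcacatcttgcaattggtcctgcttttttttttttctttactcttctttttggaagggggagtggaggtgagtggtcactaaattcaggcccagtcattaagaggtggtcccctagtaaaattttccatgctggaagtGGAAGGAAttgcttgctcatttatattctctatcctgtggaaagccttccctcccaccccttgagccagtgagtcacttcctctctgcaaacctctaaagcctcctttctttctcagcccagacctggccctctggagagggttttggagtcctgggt
LINC01359: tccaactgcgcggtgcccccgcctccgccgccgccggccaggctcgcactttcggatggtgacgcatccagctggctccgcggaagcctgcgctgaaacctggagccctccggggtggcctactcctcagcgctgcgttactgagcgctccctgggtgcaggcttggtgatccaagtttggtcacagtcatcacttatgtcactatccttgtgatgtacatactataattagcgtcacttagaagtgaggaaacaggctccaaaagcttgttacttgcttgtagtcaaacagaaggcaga
SOX6: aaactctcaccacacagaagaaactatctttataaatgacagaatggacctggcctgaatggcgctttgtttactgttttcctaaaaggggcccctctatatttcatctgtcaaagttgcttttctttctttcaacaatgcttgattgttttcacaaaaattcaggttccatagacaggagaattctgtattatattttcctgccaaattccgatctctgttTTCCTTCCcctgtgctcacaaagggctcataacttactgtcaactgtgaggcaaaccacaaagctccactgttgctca

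BFSP1 encodes a filament protein of the eye lens, and its region had H3K27ac folds of 12.8 and 21.0, H3K4me1 folds of 19.2 and 14.6 and low H3K4me3 folds of 7.62 and 4.65. LINC01359 is a long non-coding RNA gene whose window was chosen after its values were seen, and its region had H3K27ac folds of 7.05 and 9.74 and H3K4me3 folds of 45.9 and 23.5. SOX6 encodes an SRY-related factor, and its region had H3K4me1 folds of 15.5 and 16.5 and H3K4me3 folds of 36.6 and 27.8. Of 34961 windows of this length over all genes, 3.67% held the motif, so the BFSP1 and SOX6 windows are not typical in holding it. In regions with both marks 7 of 102 protein-coding windows and 4 of 130 non-coding ones held it, with H3K27ac alone 0 of 28 and 1 of 30, and with H3K4me1 alone 5 of 109 and 11 of 205. A match describes these letters and is no binding site.

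The last comparison asked whether genes near the classes differed at their own ends. H3K4me3 lay within 1 kb of a boundary of 77.8% and 77.7% of genes nearest to a region with both marks, 75.9% and 75.6% for H3K27ac alone and 73.6% and 73.4% for H3K4me1 alone, against 65.3% and 65.1% of all genes and 60.8% and 60.6% of genes with none of the 3. The difference between both marks and H3K4me1 alone was 4.23 ± 0.0928 percentage points (SD, n = 2). It was 2.45 without H3K27ac replicate 2 and 7.81 without H3K4me1 replicate 2. H3K27me3 lay at the ends of 8.18% and 10.3% of genes near both marks, 8.13% and 10.1% near H3K27ac alone and 14.5% and 17.1% near H3K4me1 alone, against 12.8% and 15.2% of all genes. Many genes had regions of more than 1 class. Those near both marks and not near H3K4me1 alone had H3K27me3 at 6.20% and 8.86%, and those near H3K4me1 alone and not near both marks at 16.6% and 19.5%. Within each H3K27me3 library the genes near both marks were thus below those near H3K4me1 alone.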

How the data were processed

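The authors deposited 1 peak list per library, called per sample, on build hg38. The submitters' processing notes list Bowtie2, MACS2, SEACR 1.2 and bedtools but give none of them a role. Per the file headers and peak names, H3K27ac, H3K4me1, H3K4me3 and HOXD13 were called as narrow peaks against IgG and H3K27me3 as broad peaks. In each list the authors give a fold enrichment (a ratio over the caller's background), a −log10 p and a −log10 q per peak. The deposited score is 10 times the −log10 q, without decimals. Per the deposited values, no peak had a q-value above 0.01. Peak numbers have gaps, so a selection by a criterion not given in the sources used here preceded deposit. Read depth is unknown.

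Autosomal and X-chromosome peaks and RefSeq gene boundaries (GRCh38.p14) were used. Any overlap of 1 bp or more counted. Intervals are Clopper-Pearson at 95% and describe counting error alone. The smallest p that exact permutation could give was 0.5 over 2 paired libraries and 0.33 for 2 against 2, so no test was run. The counting code recovered all regions planted in simulated lists.

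The classes, gene lists (17 lists, 441 of 442 genes measured) and alternatives were chosen with earlier results of these data known. Named regions are the 6 per class with the best worst rank by −log10 q over the lists that hold the mark, at most 1 per gene; named genes are the 6 per class with most regions; list members are the up to 4 with most regions. A named H3K27ac-alone region and a list member are not reported here. For regions named with HOXD13, H3K27me3 or CHLA10 H3K27ac the same ranking was used. The printed sequences, the chromosomes, the stretches and the repeat clusters were singled out after their values were seen. Python 3.11.15, numpy 2.4.6, pandas 2.3.3, scipy 1.17.1 and matplotlib 3.10.9 were used. A search for motifs under the regions themselves needed a genome sequence and is not reported here.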

Additional observations from a re-analysis of the deposited data

How the results depend on the processing

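No paired analysis was possible because no result comes from a fit or test across samples; differences between classes were taken within each library and are values only. In all, 63 of 63 alternative values of the differences between both marks and H3K4me1 alone kept their direction. Differences from H3K27ac alone were not counted there, and some of them reversed. Among regions of 1.5 to 2.5 kb, H3K27ac alone exceeded both marks for H3K4me3 (16.4% against 9.48%) and HOXD13 (14.4% against 11.7%). Of the alternative values of results that answer a comparison, 55 moved by less than the replicate spread or interval and 64 by more. For counts the limit was 1.5 times. Windows of 1 kb and regions of 1.5 to 2.5 kb were added after seeing the data. The upper 50% of each list gave 2670 regions with both marks, 1194 with H3K27ac alone and 7360 with H3K4me1 alone, and 53 list genes with a region of both marks nearest (82 with all peaks). Presence in either replicate gave 20119, 46075 and 85381 regions and 201 list genes. Lists of equal length gave 7592 with H3K4me1 alone. The percent of H3K4me1 regions with H3K27ac was 33.1 with equal lists, 29.3 merged across gaps of up to 1 kb, 19.1 with either replicate and 23.5 without regions with H3K4me3. Differences are both marks minus H3K4me1 alone, in percentage points. The H3K4me3 difference was 9.29 with all annotated genes, 13.3 with upper 50%, 11.3 with equal lists, 5.26 with either replicate, 6.16 in the window and 6.20 at matched length. The CHLA10 H3K27ac difference was 27.9, 28.7 and 22.6 with upper 50%, equal lists and either replicate, 27.04 without H3K4me3 regions, 24.4 in the window and 23.8 at matched length. The HOXD13 difference was 11.8 across gaps, 6.48 with either replicate, 5.26 in the window and 4.96 at matched length. The gene-end difference was 4.11 over 10 kb from genes, 3.94 with all annotated genes, 3.90 with upper 50%, 3.24 with equal lists, 5.46 with either replicate, 4.03 without H3K4me3 regions and 4.54 within 50 kb, where neural genes came to 1 with both marks and 6 with H3K4me1 alone (3 and 10 within 100 kb) and chondrogenic and osteogenic genes to 1 with both marks (2 within 100 kb). Leaving out each library gave 4871 to 8449, 2271 to 27969 and 15432 to 76731 regions of the 3 classes, 6.83 to 35.4 percent, 6.30 to 11.1 for H3K4me3, −4.99 to −2.32 for H3K27me3, 19.4 to 38.9 for CHLA10 H3K27ac, 6.16 to 12.2 for HOXD13, 2.45 to 7.81 at gene ends and 85 to 123 list genes. Fewer peaks or laxer presence change the counts by construction, and other causes were not tested. Of 18 named regions, 9 stayed in their class without H3K4me3 regions. What reads would add cannot be given, since the lists hold no depth.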
